A study of Mus musculus with 11 samples.

Results

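The palate and craniofacial transcription factors examined here are 46 genes whose products help give facial mesenchyme its identity. They were chosen by symbol, and each symbol was found in 1 row among the 23286 rows of the deposited expression table through the RefSeq accessions of that row. The data were polyA RNA-seq of mouse embryonic palatal mesenchyme cells (MEPMs), cultured cells of palate taken from E13.5 embryos. Libraries were made from MEPMs given 30 ng/mL PDGFA for 1 h (4 libraries), MEPMs given 50 ng/mL FGF1 together with 1 µg/mL heparin for 1 h (3 libraries), and serum-starved MEPMs (4 libraries). All 3 groups were cultured in 10% serum and then kept in 0.1% serum overnight, and the labels give no strain, genotype or source embryo. The labels do not say whether the libraries of a group came from separate cultures or litters. Heparin was given only with FGF1, so FGF1 and heparin cannot be told apart. The design asks what each ligand does against starved cells and how the ligands differ.

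The shelves of the palate are filled with mesenchyme that descends largely from cranial neural crest, and combinations of homeobox, T-box, forkhead and zinc-finger factors mark regions of it. Msx1 and Shox2 are known for the anterior palate, Barx1 and Meox2 for the posterior palate, Osr2 for shelf growth, and Tbx22 for bone formation in the palate. Twist, Snail and Zeb proteins repress epithelial genes and keep neural crest derivatives mesenchymal, while Runx2 and Sox9 direct bone and cartilage formation. PDGF and FGF receptors signal through the MAPK and PI3K cascades, and many genes that answer such signals do so within the first hour.

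The authors deposited a single FPKM value per gene and group, bounded below and above by an interval. FPKM is a fragment count divided by transcript length and library total, so levels of different genes can be set side by side. That division does not account for base composition or for reads of overlapping genes, so comparisons between genes are approximate. The deposited interval follows each value in square brackets where it is given. No values of single libraries were used, so no test between replicates stands behind any comparison, and the sequencing depth is unknown. A gene was taken as expressed at 1 FPKM or more. A difference was called only when the 2 deposited intervals had no overlap and each value lay inside its own interval, as it did for all 46 genes. Log2 folds are those of FPKM + 0.5, so changes of low genes come out too small.

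The label of the cells was set against marker genes. Of 10 mesenchyme and fibroblast markers, 9 were expressed in every group, led by Vim and Col1a2, with summed FPKM of 7578 with PDGFA, 7076 with FGF1 and 6946 in starved cells. The remaining one, Col1a1, was a row with a failed estimate and was listed at 0. Of 14 palatal epithelium markers 1 was expressed, the keratin gene Krt18, and the summed FPKM of that list was 8.30 with PDGFA, 7.15 with FGF1 and 5.86 in starved cells. The 7 blood and macrophage markers found summed to 1.86 FPKM with PDGFA, 1.93 with FGF1 and 2.14 in starved cells, with the globin genes Hba-a1 and Hbb-bs at 0. Only 1 of the 7 was expressed, at 1.54 FPKM with PDGFA, 1.64 with FGF1 and 1.78 in starved cells. Endothelial markers summed to 5.89 FPKM with PDGFA, 4.84 with FGF1 and 5.04 in starved cells, with Tie1 at 0 throughout. Of these 9 markers, 3 were expressed with PDGFA, 2 with FGF1 and 3 in starved cells. The highest stood at 2.60 FPKM with PDGFA, 1.97 with FGF1 and 2.03 in starved cells. Among 10 neural and glial markers, 2 were expressed with PDGFA, 3 with FGF1 and 3 in starved cells. Tubb3 and Stmn2 made up most of sums of 95.6 FPKM with PDGFA, 88.2 with FGF1 and 78.8 in starved cells. Skeletal muscle markers differed between groups: 7 of 15 were expressed with PDGFA, against 3 with FGF1 and 3 in starved cells, and their sums were 114 FPKM with PDGFA, 32.9 with FGF1 and 25.6 in starved cells. Acta1 and Actc1, both muscle actins, carried most of that sum and were called higher with PDGFA. The part of muscle cells in the values below was not tested. In RNA of whole cultures, fewer cells of a type and less RNA per cell cannot be told apart. Of 10 immediate early genes, the first to answer such ligands, 8 were called higher with PDGFA and 10 with FGF1. The shares of all compared rows called higher were 0.308% with PDGFA and 0.538% with FGF1. This list was chosen with earlier results of these data known. Egr1 was called with each ligand and Fos with FGF1.

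Most of the palate and craniofacial factors were expressed in these cells. In every group 39 of the 46 genes reached 1 FPKM, and they were the same 39 genes. In the whole table the share of rows at 1 FPKM or more was 49.3% with PDGFA, 48.8% with FGF1 and 49.1% in starved cells. Among the expressed factors the median level was 13.52 FPKM with PDGFA, 12.7 FPKM with FGF1 and 11.3 FPKM in starved cells, beside 12.5 FPKM with PDGFA, 12.5 with FGF1 and 12.1 in starved cells for all expressed rows of the table. In starved cells 22 factors stood at 10 FPKM or more and 17 between 1 and 10 FPKM. A few genes carried most of the signal: the 5 highest made up 52.4% of the summed FPKM of the list with PDGFA, 53.6% with FGF1 and 53.3% in starved cells. The plot of levels shows the whole order.

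**Figure D1:**
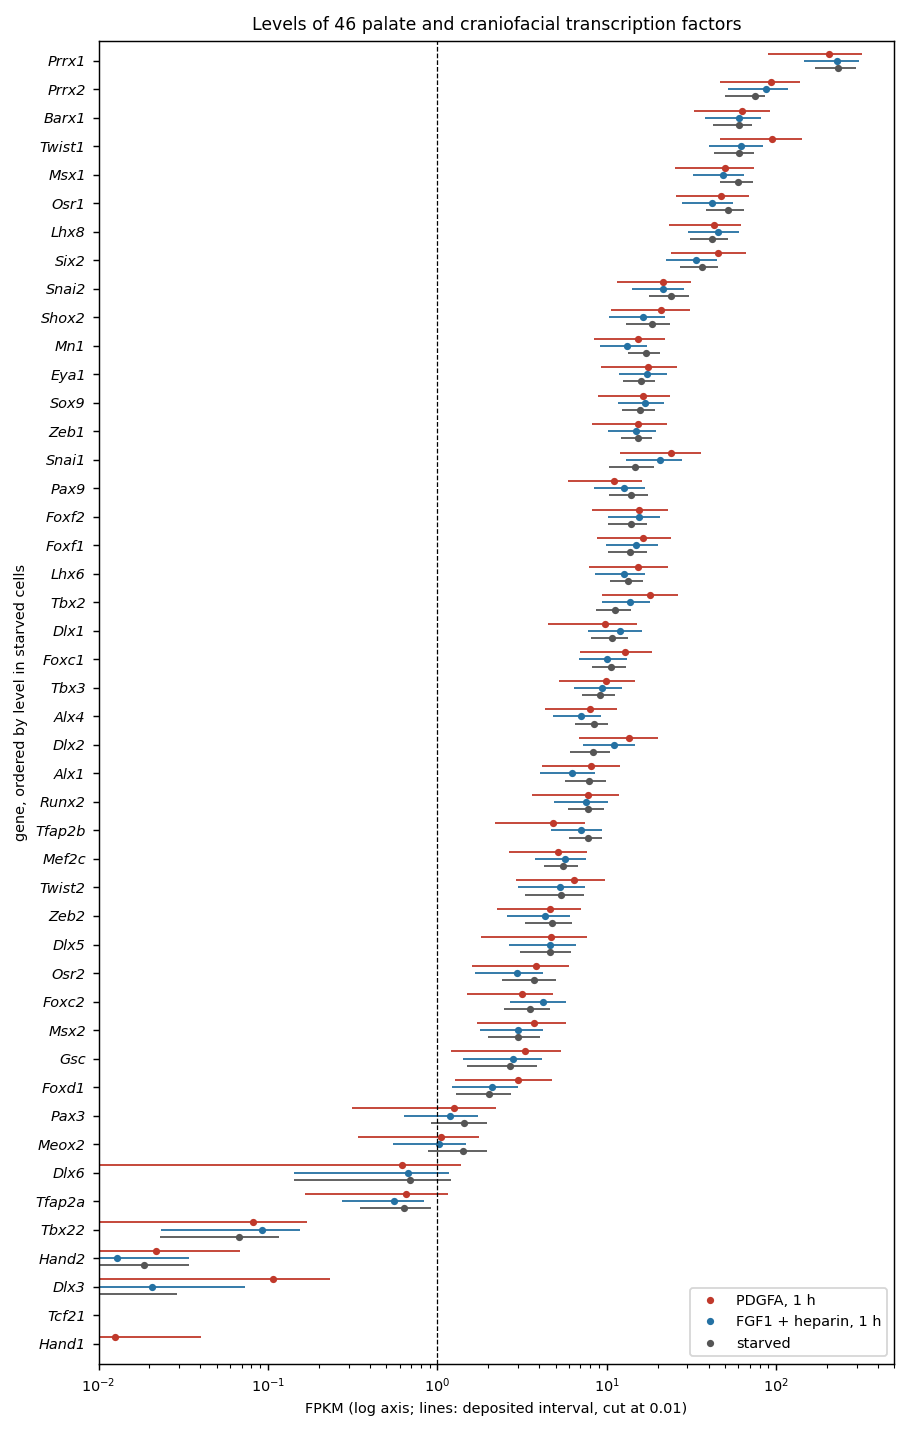
FPKM of each of the 46 factors (log axis) with PDGFA, with FGF1 and heparin, and in starved cells; points are the authors' group values and bars the deposited intervals, and values left of the axis end, zeros included, are not drawn. Prrx1 stands above 200 FPKM in all 3 groups, 39 genes lie at or above 1 FPKM, and the bars of a gene overlap between groups.

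Prrx1, a paired-type homeobox factor of limb and cranial mesenchyme, was the highest of all, at chr1:163245119-163313650 (mm10, as are all positions below). It had 206 FPKM [89.9 to 323] with PDGFA, 228 FPKM [147 to 310] with FGF1 and 233 FPKM [171 to 295] in starved cells, where it stood at percentile 99.1 of all rows. Its paralogue Prrx2, at chr2:30845367-30881247, had 93.3 FPKM [46.6 to 139] with PDGFA, 86.8 FPKM [52.4 to 117] with FGF1 and 74.95 FPKM [50.3 to 86.1] in starved cells. Prrx1 was 2.21 times Prrx2 with PDGFA, where the intervals overlapped, and 2.63 times with FGF1 and 3.10 times in starved cells, with intervals apart in both groups. These genes were the only neighbours in the order of levels whose intervals lay apart: of 38 such neighbours among the expressed factors, 0 were apart with PDGFA, 1 with FGF1 and 1 in starved cells. Below Prrx1 the order of neighbouring genes is therefore not resolved by the intervals.

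The homeobox and paired factors, counted here and below together with the Six2 partner Eya1, were all expressed, 16 of 16, from Prrx1 down to the low Pax3 and Meox2. Barx1, at chr13:48663036-48666507, a marker of proximal arch and posterior palate mesenchyme, had 62.6 FPKM with PDGFA, 60.1 FPKM with FGF1 and 60.7 FPKM in starved cells. Msx1, at chr5:37820491-37824585, a target of BMP signalling whose loss gives cleft palate, had 50.0 FPKM with PDGFA, 48.7 FPKM with FGF1 and 59.8 FPKM in starved cells. Shox2 had 20.9 FPKM with PDGFA, 16.3 FPKM with FGF1 and 18.6 FPKM in starved cells. The anterior markers Msx1 and Shox2 were thus expressed beside Barx1, which is not a marker of the posterior palate alone. Meox2, the other posterior marker, was near the limit of expression, at 1.06 FPKM with PDGFA, 1.02 FPKM with FGF1 and 1.43 FPKM in starved cells. Its lower bounds were under that limit, at 0.341 FPKM with PDGFA, 0.551 with FGF1 and 0.876 in starved cells. The intervals of Barx1 and Meox2 lay apart in every group, as did those of Msx1 and Shox2 with FGF1 and in starved cells.

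LIM-homeobox genes of the oral side of the first arch were well expressed. Lhx8 had 42.9 FPKM with PDGFA, 45.4 FPKM with FGF1 and 41.9 FPKM in starved cells, and Lhx6 had 15.4 FPKM with PDGFA, 12.7 with FGF1 and 13.4 in starved cells. Six2, a progenitor factor, had 45.3 FPKM with PDGFA, 33.9 with FGF1 and 36.3 in starved cells, and Eya1, a partner of Six2, had 17.6 FPKM with PDGFA, 17.3 with FGF1 and 15.9 in starved cells. Pax9, needed for palate and tooth formation, had 11.1 FPKM with PDGFA, 12.7 FPKM with FGF1 and 13.9 FPKM in starved cells, against 1.26 FPKM with PDGFA, 1.19 with FGF1 and 1.44 in starved cells for Pax3, a marker of early neural crest. The frontonasal factors Alx1 and Alx4 stood side by side, Alx1 at 8.06 FPKM with PDGFA, 6.28 with FGF1 and 7.87 in starved cells and Alx4 at 7.94 FPKM with PDGFA, 7.05 with FGF1 and 8.38 in starved cells. Msx2 had 3.73 FPKM with PDGFA, 2.99 with FGF1 and 3.01 in starved cells, and Gsc (goosecoid) had 3.31 FPKM with PDGFA, 2.80 with FGF1 and 2.69 in starved cells. The intervals of every one of these genes overlapped between groups.

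The factors of epithelial-mesenchymal transition were expressed in full, 6 of 6. Twist1, a basic helix-loop-helix factor at chr12:33957671-33959831, led them with 94.4 FPKM [46.7 to 142] with PDGFA, 62.4 FPKM [40.4 to 84.3] with FGF1 and 60.1 FPKM [43.3 to 74.0] in starved cells. The zinc-finger repressor Snai2 (Slug) had 21.6 FPKM with PDGFA, 21.5 FPKM with FGF1 and 24.1 FPKM in starved cells. Its relative Snai1 (Snail), at chr2:167538227-167542811, had 24.0 FPKM [11.9 to 36.0] with PDGFA, 20.6 FPKM [13.1 to 27.8] with FGF1 and 14.8 FPKM [10.3 to 19.1] in starved cells. Zeb1, a zinc-finger homeodomain repressor of epithelial genes, held 15.4 FPKM with PDGFA, 14.9 with FGF1 and 15.3 in starved cells, and Zeb2 held 4.64 FPKM with PDGFA, 4.34 with FGF1 and 4.77 in starved cells. Twist2 was low beside Twist1, at 6.39 FPKM with PDGFA, 5.29 FPKM with FGF1 and 5.34 FPKM in starved cells.

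The Osr and T-box group with Mn1 held 5 expressed genes of 6. Osr1, an odd-skipped zinc-finger factor, had 47.7 FPKM with PDGFA, 41.9 FPKM with FGF1 and 52.1 FPKM in starved cells, and Osr2, known for palatal shelf growth, had 3.81 FPKM with PDGFA, 2.94 with FGF1 and 3.73 in starved cells. Tbx2, a T-box repressor at chr11:85832615-85841948, had 18.0 FPKM [9.33 to 26.6] with PDGFA, 13.7 FPKM [9.33 to 18.0] with FGF1 and 11.3 FPKM [8.63 to 13.9] in starved cells, and Tbx3 had 9.95 FPKM with PDGFA, 9.41 with FGF1 and 9.19 in starved cells. Mn1, a transcriptional co-regulator needed for the palate at chr5:111418166-111457025, had 15.3 FPKM [8.41 to 22.2] with PDGFA, 13.2 FPKM [9.15 to 17.3] with FGF1 and 17.0 FPKM [13.4 to 20.6] in starved cells. Tbx22, the T-box gene behind X-linked cleft palate, was not expressed by the 1 FPKM rule.

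All 5 forkhead genes were expressed. Foxf1 and Foxf2, targets of hedgehog signalling in facial mesenchyme, had like levels: Foxf1 had 16.3 FPKM with PDGFA, 15.0 FPKM with FGF1 and 13.7 FPKM in starved cells, and Foxf2 had 15.6 FPKM with PDGFA, 15.4 with FGF1 and 13.9 in starved cells. Foxc1 had 12.8 FPKM with PDGFA, 10.1 with FGF1 and 10.6 in starved cells, and Foxc2 had 3.16 FPKM with PDGFA, 4.23 with FGF1 and 3.55 in starved cells. Foxd1 was the lowest of them, at 3.01 FPKM [1.27 to 4.74] with PDGFA, 2.11 FPKM [1.22 to 3.00] with FGF1 and 2.01 FPKM [1.28 to 2.72] in starved cells.

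Of the Dlx genes, whose nested expression patterns the pharyngeal arches from top to bottom, 3 of 5 were expressed. Dlx1 had 9.79 FPKM with PDGFA, 12.0 FPKM with FGF1 and 10.8 FPKM in starved cells. Dlx2, its neighbour at chr2:71543408-71546754, had 13.52 FPKM [6.87 to 20.2] with PDGFA, 11.04 FPKM [7.30 to 14.7] with FGF1 and 8.29 FPKM [6.04 to 10.5] in starved cells. Dlx5 had 4.72 FPKM with PDGFA, 4.62 with FGF1 and 4.62 in starved cells, with intervals apart from those of its neighbour Dlx6, which stayed between 0.618 and 0.689 FPKM. Dlx1 and Dlx2, which are expressed along the whole arch, were thus above 1 FPKM, and of the more distal genes Dlx5 was above it while Dlx3 and Dlx6 were below it.

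The skeletal lineage factors were all present, 3 of 3. Sox9, the cartilage factor, had 16.3 FPKM with PDGFA, 16.7 FPKM with FGF1 and 15.7 FPKM in starved cells. Runx2, the bone factor, had 7.74 FPKM with PDGFA, 7.51 with FGF1 and 7.80 in starved cells, and Mef2c, a MADS-box factor of muscle and of neural crest, had 5.17 FPKM with PDGFA, 5.67 with FGF1 and 5.50 in starved cells. Of the group of other helix-loop-helix and AP-2 factors, which leaves out the expressed Twist1 and Twist2, only Tfap2b passed, 1 of 5. Tfap2b, an AP-2 factor of neural crest at chr1:19208914-19238734, had 4.83 FPKM [2.18 to 7.47] with PDGFA, 7.05 FPKM [4.72 to 9.37] with FGF1 and 7.72 FPKM [6.01 to 9.44] in starved cells.

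The 7 factors under 1 FPKM in every group were Tfap2a, Dlx6, Dlx3, Tbx22, Hand1, Hand2 and Tcf21, with values between 0 and 0.689 FPKM. Tfap2a and Dlx6 lay nearest the limit, with highest values of 0.658 and 0.689 FPKM, and the intervals of both reached above 1 FPKM in at least 1 group. Hand1 and Hand2, which mark the distal mandibular arch and the heart, stayed at or below 0.0219 FPKM. Tcf21 (capsulin) was listed at 0 in all 3 groups.

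Within several families 1 paralogue dominated. In starved cells Msx1 was 19.8 times Msx2, Osr1 was 14.0 times Osr2 and Twist1 was 11.3 times Twist2. Pax9 was 9.66 times Pax3, Zeb1 was 3.21 times Zeb2, Lhx8 was 3.13 times Lhx6 and Foxc1 was 2.99 times Foxc2. The intervals of these 7 pairs lay apart in all 3 groups, with the same paralogue higher in each. Snai1 and Snai2, Dlx1 and Dlx2, Alx1 and Alx4, Tbx2 and Tbx3, and Foxf1 and Foxf2 had overlapping intervals in all 3 groups.

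PDGFA left the levels of these factors without a called shift at 1 h. Of the 39 expressed factors, 0 were called higher than in starved cells, against 0.308% of the 11702 compared rows, and 0 were called lower, against 0% of those rows. The highest log2 folds belonged to Snai1 at 0.68, Dlx2 at 0.67, Tbx2 at 0.65, Twist1 at 0.65 and Foxd1 at 0.48. By the values above, Snai1 with PDGFA was 1.62 times its starved level, and the bounds of the intervals allow ratios of 0.624 to 3.50. For Dlx2 the ratio was 1.63 (0.654 to 3.34), for Tbx2 1.59 (0.669 to 3.08) and for Twist1 1.57 (0.631 to 3.29). In each of these genes the PDGFA value stood above the top of the starved interval, while the starved value stayed inside the wide PDGFA interval. This weaker condition was met by 6 factors, the 5 named and Prrx2, and by 11.1% of all compared rows. It was taken up after the data were seen.

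**Figure D2:**
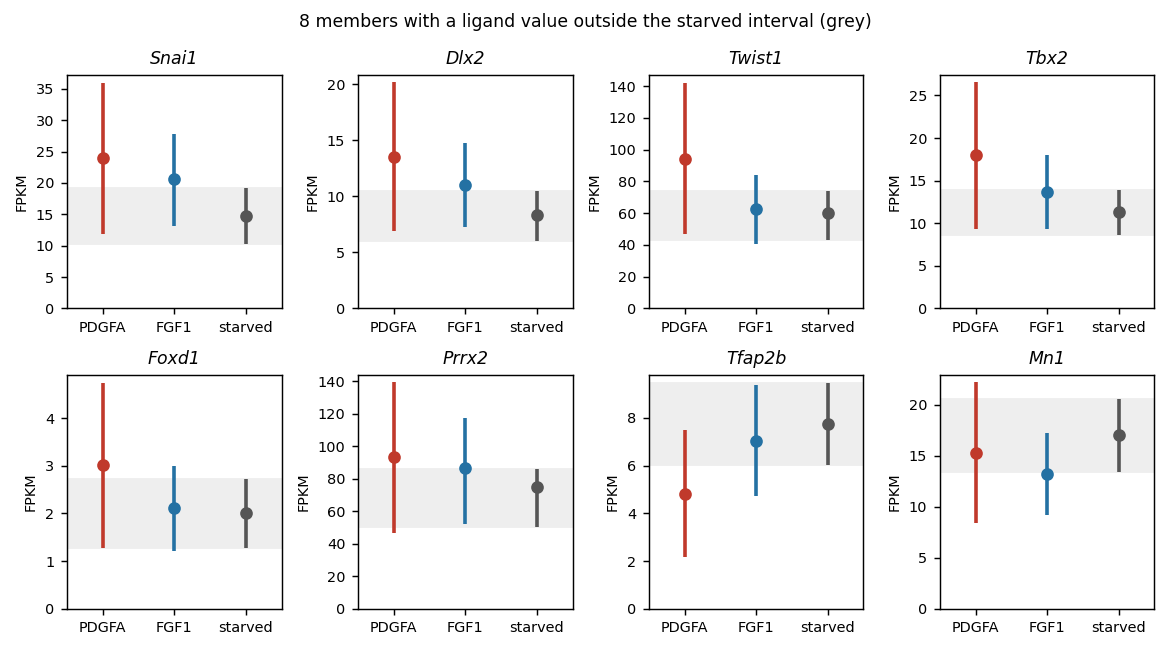
FPKM with deposited intervals, PDGFA, FGF1 with heparin and starved from left to right, for the 8 factors in which the value with a ligand lay outside the starved interval. Snai1, Dlx2, Twist1, Tbx2, Foxd1 and Prrx2 stood above it with PDGFA, Tfap2b below it with PDGFA and Mn1 below it with FGF1, and all intervals of a gene overlap.

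Tfap2b had the lowest log2 fold with PDGFA, −0.63. Its PDGFA level was 0.625 times the starved level (0.231 to 1.24 from the bounds). It was the only factor for which each value lay outside the interval of the other group, a looser rule that 0.376% of compared rows met in the lower direction and 0.59% in the higher direction. The next lowest log2 folds were those of Pax9 at −0.32, Meox2 at −0.31, Msx1 at −0.25 and Prrx1 at −0.17, all with values inside the starved interval. A value below that interval was found for Tfap2b alone among the factors, and for 1.95% of compared rows.

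Of the 39 factors, 24 had a higher value with PDGFA than in starved cells and their median log2 fold was 0.03, against 49.3% of all compared rows and a median of −0.00. Under quantile normalization 18 of the 39 were higher, against 38.1% of all rows. By role, the counts of higher values were 4 of 6 transition factors (median log2 fold 0.12), 10 of 16 homeobox and paired factors (0.04), 2 of 3 Dlx genes (0.03), 3 of 5 genes of the Osr, T-box and Mn1 group (0.03), 4 of 5 forkhead genes (0.24) and 1 of 3 skeletal factors (−0.01). Under quantile normalization the medians of the homeobox factors and the Dlx genes were −0.04 and −0.01. A trend on GC content, length and level together is described below. With that trend removed, the medians were −0.07 for the homeobox factors, −0.02 for the Dlx genes, −0.09 for the Osr, T-box and Mn1 group and 0.06 for the skeletal factors. Of these 6 groups only the transition and forkhead groups thus kept their sign. As deposited, an absolute log2 fold above 0.5 occurred in 5 of the 39 factors, or 12.8%, against 5.79% of all rows. With the trend removed, Tfap2b alone among the factors stayed beyond 0.5, at −0.55. The share of all rows beyond 0.5 without the trend was not counted.

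The bases just upstream of an annotated start are shown next, for genes at the ends of the PDGFA folds. The windows below run 250 bases up to the annotated start, from the RefSeq table of build GRCm38.p6, and are shown for Snai1, Dlx2 and Twist1, which were among the highest, and for Tfap2b, which stood lowest. Capitals mark CCAAT (or ATTGG, its reverse complement) and TATAAA, and GC boxes are left in lower case. Snai1 lies at chr2:167537945-167538194 on the plus strand, Dlx2 at chr2:71546755-71547004 on the minus strand and Twist1 at chr12:33957421-33957670 on the plus strand. Tfap2b lies at chr1:19211804-19212053 on the plus strand, inside the locus of its row. The Tfap2b window thus precedes a later annotated start and is not upstream of the start of its row.
Snai1: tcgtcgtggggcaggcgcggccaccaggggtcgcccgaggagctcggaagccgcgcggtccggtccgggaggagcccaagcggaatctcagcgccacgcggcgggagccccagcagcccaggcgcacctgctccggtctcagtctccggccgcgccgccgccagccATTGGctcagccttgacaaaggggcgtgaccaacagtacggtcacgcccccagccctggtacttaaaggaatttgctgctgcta
Dlx2: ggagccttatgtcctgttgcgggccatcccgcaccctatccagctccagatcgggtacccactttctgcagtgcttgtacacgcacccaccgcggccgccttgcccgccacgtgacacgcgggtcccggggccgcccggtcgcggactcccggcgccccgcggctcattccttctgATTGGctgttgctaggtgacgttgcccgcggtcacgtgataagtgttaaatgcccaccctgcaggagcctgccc
Twist1: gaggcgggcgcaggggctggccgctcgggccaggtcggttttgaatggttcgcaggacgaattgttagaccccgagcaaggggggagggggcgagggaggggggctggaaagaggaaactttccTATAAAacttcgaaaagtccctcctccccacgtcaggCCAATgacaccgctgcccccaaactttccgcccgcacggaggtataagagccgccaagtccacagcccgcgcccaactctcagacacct
Tfap2b: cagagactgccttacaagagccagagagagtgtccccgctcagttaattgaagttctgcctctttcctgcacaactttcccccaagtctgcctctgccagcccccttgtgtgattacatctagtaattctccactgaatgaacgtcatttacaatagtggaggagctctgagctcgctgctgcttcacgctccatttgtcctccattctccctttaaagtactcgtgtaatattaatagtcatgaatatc
Each of the 3 windows of Snai1, Dlx2 and Twist1 held 1 CCAAT, and Twist1 also held 1 TATAAA. The Dlx2 and Twist1 windows each held 1 GC box as well, while the Tfap2b window held no match to any motif searched. Its GC content was 46.4%, against 70% for Snai1, 66.4% for Dlx2 and 62.4% for Twist1. The windows of the genes with the next lowest PDGFA folds were mixed. Those of Pax9 and Prrx1 held no match, at GC contents of 43.6% and 47.6%. The Msx1 window held 2 CCAAT and 1 GC box at 68%, and the Meox2 window held 1 GC box and 1 TATAAA at 62%.

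Windows were found for 28 of the 46 factors, 38 in all, and were set beside 32851 windows of 27025 genes. The factors' windows had a median GC content of 56.4%, against 52.4% in all windows. Their median ratio of observed to expected CpG was 0.631, against 0.374. The GC box GGGCGG occurred in 23 of 38 windows (60.5%), against 32.7% of all windows, and CCAAT occurred in 16 (42.1%), against 33.8%. Motifs bound by growth-factor-responsive proteins were counted as well. The cAMP response element TGACGTCA and the CArG box of the serum response factor occurred in 0 of 38 windows, against 1.55% and 1.47% of all windows. The AP-1 motif TGANTCA was in 4 windows (10.5%), against 6.75%, and the EGR motif GCGNGGGCG in 5 (13.2%), against 4.70%. TATAAA was in 6 windows (15.8%), against 12.4%. Both strands were searched, and the GC-rich motifs can overlap each other. Shares are of windows and not of genes. Some windows of a gene overlap, as in Zeb2, so the same motif can be counted more than once. The windows with the AP-1 motif all belong to factors with several windows. A match describes letters in a window and not a site in use.

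FGF1 with heparin gave no called shift either. Of the 39 factors, 0 were called higher than in starved cells, against 0.538% of compared rows, and 0 were called lower, against 0.0171%. Snai1 and Dlx2 again had the highest log2 folds, 0.47 and 0.39. Snai1 with FGF1 was 1.39 times its starved level (0.684 to 2.71 from the bounds) and Dlx2 was 1.33 times (0.695 to 2.44). Tbx2 followed at 0.27, Foxc2 at 0.22 and Prrx2 at 0.21. The FGF1 value stood above the starved interval for 3 factors, Snai1, Dlx2 and Prrx2, and for 4.47% of all compared rows. The rule that each value lie outside the other interval was met by 0 factors, against 1.05% of rows higher and 0.709% lower. PDGFA and FGF1 were each set against the same starved cells, so these 2 sets of folds are not independent of each other.

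The lowest log2 folds with FGF1 were those of Mn1 at −0.35, Meox2 at −0.34, Osr1 at −0.31, Alx1 at −0.30 and Osr2 at −0.30, with Msx1 at −0.29. Mn1 was the 1 factor whose FGF1 value lay below the starved interval, as did 0.82% of compared rows, and its starved value lay inside the FGF1 interval. In the Osr, T-box and Mn1 group 2 of 5 values were higher with FGF1 and the median log2 fold was −0.30, while among homeobox and paired factors 4 of 16 were higher with a median of −0.09. The forkhead genes had 4 of 5 values higher and a median of 0.12. Over all 39 factors, 16 were higher and the median log2 fold was −0.01, against 56.0% and 0.02 for all compared rows. No factor had an absolute log2 fold above 0.5, against 2.14% of all rows. Twist1, which stood high with PDGFA, had a log2 fold of 0.05 with FGF1.

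Set against PDGFA, FGF1 gave 0 of 39 factors called higher, against 0.0256% of compared rows, and 0 called lower, against 0.094%. The highest log2 folds of FGF1 over PDGFA were those of Tfap2b at 0.50, Foxc2 at 0.37, Dlx1 at 0.28, Pax9 at 0.19 and Prrx1 at 0.14. The lowest were those of Twist1 at −0.59, Foxd1 at −0.42, Six2 at −0.42, Tbx2 at −0.38 and Shox2 at −0.35. Twist1 with FGF1 was 0.661 times its PDGFA level. The PDGFA values of Twist1, Six2 and Foxd1 lay above the FGF1 intervals, as did 3.49% of compared rows, and the FGF1 values lay inside the PDGFA intervals. An FGF1 value lay outside the PDGFA interval for 0 factors, against 0.564% of rows above and 0.171% below it, and each value lay outside the other interval for 0 factors, against 0.35% of rows higher and 0.162% lower. Of the 39 factors, 8 had the higher value with FGF1 and the median log2 fold was −0.09, against 53.1% and 0.01 for all rows. That count was 14 under quantile normalization, against 60.8% of all rows. It was 17 once the trend on GC content, length and level described below was removed, against 51.8%. Among transition factors 0 of 6 were higher with FGF1, also without the trend, and 1 of 6 was under quantile normalization. In the Osr, T-box and Mn1 group 0 of 5 were higher, and 2 of 5 were without the trend.

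**Figure D3:**
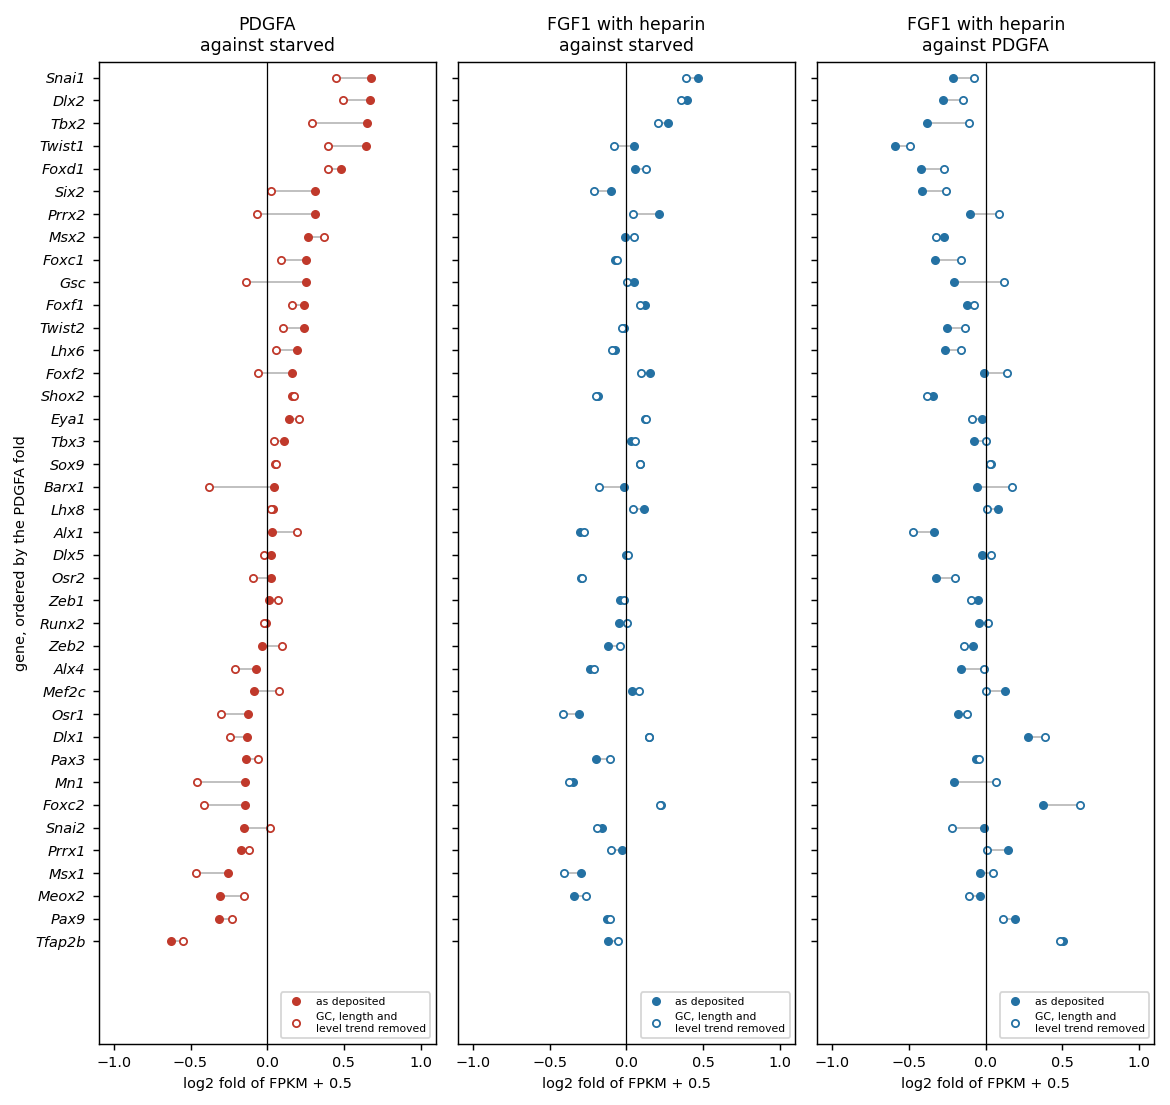
Log2 fold of FPKM + 0.5 of the 39 expressed factors in the 3 comparisons, ordered by the PDGFA fold; filled points are values as deposited and open points are values after the trend on GC content, length and level was removed. Snai1, Dlx2, Tbx2 and Twist1 head the PDGFA panel between 0.65 and 0.68, Tfap2b ends it at −0.63, and the points of the FGF1 panel lie between −0.35 and 0.47.

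Folds with PDGFA moved with the base composition of the transcripts. Over 11579 compared rows the Spearman correlation of the log2 fold with transcript GC content was 0.598 for PDGFA and 0.179 for FGF1 against starved cells, and −0.585 for FGF1 against PDGFA. These are correlations across genes of the same group values, given as a description. The factors had a median GC content of 54.6%, with a range of 42.6% to 66.6%, against 50.3% for all compared rows. Within the 39 factors the correlation was 0.484 for PDGFA and 0.329 for FGF1 against starved cells, and −0.387 for FGF1 against PDGFA. GC-rich genes such as Tbx2 (63.2%), Snai1 (59.8%), Twist1 (59.3%) and Dlx2 (58.3%) lay at the top of the PDGFA folds, and Tfap2b (46.3%) at the bottom. Other GC-rich factors had log2 folds below 0 with PDGFA: Foxc2 (62.0%) had −0.15, Mn1 (61.0%) −0.15, Msx1 (58.2%) −0.25 and Osr1 (57.0%) −0.13.

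With a smooth trend on GC content, transcript length and level removed, the PDGFA log2 fold was 0.50 for Dlx2, 0.45 for Snai1, 0.40 for Twist1, 0.40 for Foxd1 and 0.29 for Tbx2. It was −0.55 for Tfap2b, −0.47 for Msx1, −0.46 for Mn1 (−0.15 as deposited), −0.41 for Foxc2 (−0.15 as deposited) and −0.38 for Barx1 (0.04 as deposited). Prrx2 had −0.07, so its sign changed, as did that of Barx1. With FGF1 the log2 fold without the trend was 0.39 for Snai1, 0.36 for Dlx2, 0.21 for Tbx2, −0.38 for Mn1 and −0.41 for Osr1. Between ligands the log2 fold without the trend was 0.61 for Foxc2, the highest, against 0.37 as deposited, and 0.48 for Tfap2b. It was −0.49 for Twist1 and −0.11 for Tbx2. GC content, length and level were not separated in this trend, and the part of base composition in the values as deposited was otherwise not tested.

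**Figure D4:**
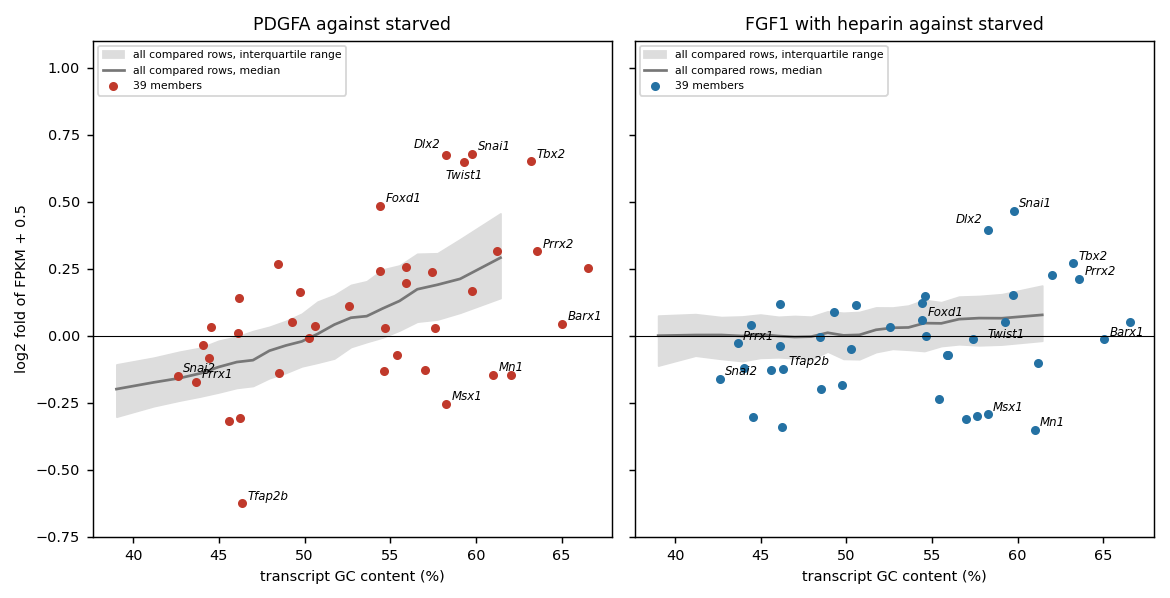
Log2 fold of FPKM + 0.5 against transcript GC content (%) for the 39 factors (points), with PDGFA on the left and FGF1 with heparin on the right, both against starved cells; the grey line and band give the median and the interquartile range of all compared rows in 20 bins of GC content. Snai1, Dlx2, Twist1 and Tbx2 are among the genes above the range of all rows with PDGFA, and Tfap2b and Msx1 are among those below it.

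How large a shift could have been called is set by the width of the intervals. For the expressed factors the median half-width was 49.1% of the FPKM with PDGFA, 33.8% with FGF1 and 25.5% in starved cells. At those widths the smallest rise that would have been called had a median ratio of 2.41 with PDGFA (2.21 to 5.48 over the 39 genes), 1.90 with FGF1 (1.75 to 2.82), and 2.31 for FGF1 over PDGFA (2.09 to 3.30). Rises of the size seen for Snai1, Dlx2, Tbx2 and Twist1 with PDGFA were not detectable by the rule, and the absence of calls does not show that these genes kept their level.

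Other craniofacial transcription factors outside the list gave no calls either. Of 66 such genes 45 were compared and 0 were called in any comparison. Of all compared rows, 0.308% were called higher and 0% lower with PDGFA, and 0.538% and 0.0171% with FGF1. For FGF1 against PDGFA these shares were 0.0256% and 0.094%. The highest in level were Ski, a co-repressor of SMAD proteins, with 74.5 FPKM with PDGFA, 68.5 FPKM with FGF1 and 70.5 FPKM in starved cells, and the SoxC factor Sox4, with 52.4 FPKM with PDGFA, 40.0 with FGF1 and 44.1 in starved cells. Tcf12, a partner of Twist1, had 35.7 FPKM with PDGFA, 39.1 with FGF1 and 39.6 in starved cells. Scx (scleraxis), a tendon factor, had 48.3 FPKM [0.454 to 107] with PDGFA, 42.3 FPKM [8.59 to 75.9] with FGF1 and 34.8 FPKM [14.3 to 55.3] in starved cells, with intervals far wider than those of the listed factors. With PDGFA the log2 folds of these genes ran highest for Sox11 (0.65), Foxs1 (0.47) and Scx (0.47) and lowest for Ebf2 (−0.45), Tbx18 (−0.34) and Mkx (−0.29). With FGF1 they ran highest for Foxs1 (0.68), Ets1 (0.52) and Irx3 (0.32) and lowest for Bcl11b (−0.28), Mecom (−0.22) and Tbx15 (−0.22). Between ligands Ebf2 (0.39) and Tbx18 (0.26) stood highest with FGF1 and Sox11 (−0.57), Zfhx3 (−0.43) and Gli2 (−0.40) lowest. The median log2 folds of the 45 genes were 0.03 with PDGFA (25 higher), −0.03 with FGF1 (15 higher) and −0.05 for FGF1 over PDGFA (17 higher). The shares of all compared rows with the higher value were 49.3%, 56.0% and 53.1% in the same order. With the trend on GC content, length and level removed, the counts of the 45 genes were 25, 22 and 22.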

How the data were processed

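PolyA RNA-seq of 11 libraries in 3 groups was analysed from 1 deposited table. Its values are FPKM, 1 per row and group, estimated by the authors, with lower and upper bounds per the file headers; the confidence level is not stated. The submitters' processing notes name CASAVA, TopHat, Cuffdiff and build mm10. Roles, strandedness and multiple matches were not given in the sources used here. Because FPKM is relative to the library total, large changes of some genes shift the values of others. Depth is unknown. The planned limma fit needs values per library and was not run.

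Accessions were matched to RefSeq genes of GRCm38.p6, the same build as mm10 (22992 rows), or GENCODE M21 (126); 168 rows had no name. Rows with at least 1 FPKM in a group and no failed estimate (2 rows had one) were compared, 11702 in all. A call needed intervals wholly apart, each value inside its own interval; log2 folds used a pseudocount of 0.5. The trend was a robust cubic regression on GC content, log2 length and log2 level over 11579 rows (98.9%). Steps were tested on simulated data. Positions are 1-based. In GENCODE M21, 13 factors overlap an exon on the opposite strand (among them Twist2, Zeb1, Zeb2, Pax9, Shox2, Dlx1, Tbx3, Foxf1, Foxf2 and Runx2), so their reads may include those of the partner; the Zeb2 row also carries a microRNA accession. At most 3.46% of a factor's 31-base words occurred in GENCODE M21 transcripts of another gene, and the genome itself was not searched.

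Members and lists were chosen with earlier results of these data known. Named were all expressed factors, the 5 highest and 5 lowest log2 folds per comparison and factors with values outside the other interval; of other craniofacial factors the 4 highest in level and 3 highest and 3 lowest folds; of marker lists up to 4 genes by level. For FGF1 against PDGFA, 1 gene that this rule names is not reported here. Calculations were run in Python 3.11.15 (statsmodels 0.14.6 for the regression, pandas 2.3.3 and numpy 2.4.6 for tables, scipy 1.17.1 for ranks, matplotlib 3.10.9 for figures).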

Additional observations from a re-analysis of the deposited data

How the results depend on the processing

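No paired analysis was possible because the table holds group values and no values per library, and for the same reason no library could be left out. Every factor had 1 row, so the choice of row gave no value. The factors had 0 calls in every comparison under each setting except the rule that asks only that each value lie outside the other interval, which gave 1 lower with PDGFA (Tfap2b). That rule gave 69 rows higher and 44 lower for PDGFA, 123 and 83 for FGF1, and 41 and 19 for FGF1 against PDGFA. For PDGFA, rows called lower numbered 1 with no minimum level, 3 under quantile normalization and 1 with the trend removed. For FGF1 against PDGFA, median-of-ratios scaling left 1 row higher. Factors with the higher value with FGF1 than with PDGFA numbered 14 under quantile normalization and 17 with the trend removed, in place of 8. The weaker condition added after the data were seen, a ligand value outside the starved interval, held for 6 factors above and 1 below with PDGFA and for 3 above and 1 below with FGF1. Expressed factors numbered 41 at a limit of 0.5 FPKM, 37 at 2 FPKM and 37 where the lower bound had to reach 1 FPKM, in place of 39. Of 117 log2 folds, the sign changed for 16 under quantile normalization and 22 with the trend removed, the largest move being 0.42 (Barx1 with PDGFA, −0.38 in place of 0.04), and for 0 under other pseudocounts and median-of-ratios scaling. The width of the PDGFA intervals limits what could be called.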

Other observations

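Genes downstream of the skeletal factors were expressed unevenly. Of 6 cartilage markers 3 were expressed, led by Col2a1, the main collagen of cartilage, with 69.1 FPKM [34.4 to 104] with PDGFA, 79.9 FPKM [53.7 to 106] with FGF1 and 74.9 FPKM [57.9 to 91.8] in starved cells. Hapln1, a cartilage link protein gene, had 5.25 FPKM with PDGFA, 5.98 with FGF1 and 5.18 in starved cells, and Col11a2, another cartilage collagen gene, had 1.19 FPKM with PDGFA, 1.37 with FGF1 and 1.37 in starved cells. Acan, the aggrecan gene, was under the limit, at 0.938 FPKM with PDGFA, 0.831 with FGF1 and 0.961 in starved cells. Of 7 bone markers 1 was expressed: Spp1 (osteopontin) had 25.3 FPKM with PDGFA, 30.8 FPKM with FGF1 and 24.0 FPKM in starved cells. Sp7 (osterix), which acts after Runx2 in bone formation, had 0.426 FPKM with PDGFA, 0.0874 FPKM with FGF1 and 0.172 FPKM in starved cells. None of these few cartilage and bone markers at 1 FPKM or more was called in any comparison. Calls were rare among all compared rows too: 0.308% higher and 0% lower with PDGFA, and 0.538% and 0.0171% with FGF1. For FGF1 against PDGFA the shares were 0.0256% and 0.094%.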
